A study of Mus musculus with 8 samples.

Results

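CpG methylation was read at 9 genes that mark neural progenitors and the steps of neurogenesis: Nes, Sox2, Pax6, Hopx, Hes5, Eomes, Neurog2, Sox11 and Sox4. The genes were taken by name, and their cytosines were all CpG cytosines inside the annotated span or within 5 kb of it that had at least 10 reads in every library. This gave 1567 cytosines, 1051 of them inside the spans, out of 1510385 such cytosines in the series. Cytosines no more than 100 bp from their neighbour were joined into runs of 3 or more CpGs, of which the 9 genes held 82 of the 125782 in the series. The assay, reduced representation bisulfite sequencing, reads the ends of short restriction fragments, which are rich in CpGs, after bisulfite has converted unmethylated cytosines. The level of a cytosine is the percent of its reads that stayed unconverted, that is, methylated. Distances count from the start of the annotated span, which lies upstream of the start used in the promoter sequences at Neurog2 and Hes5.

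The DNA came from male C57 BL/6 mice, 4 from cocaine self-administration and 4 labelled saline in the same self-administration experiment, with 1 library per mouse. The sources used here do not give the cocaine dose, the number of sessions or the time since the last one. The tissue was the dissected dDG DGC layer, taken to mean the dorsal dentate gyrus and its layer of granule cells. It was not sorted, so progenitors, granule neurons and glia all gave DNA, and a different level in every cell cannot be told apart from a different share of cells.

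In the dentate gyrus, radial glia-like stem cells lie at the inner edge of the granule cell layer and make new granule neurons throughout adult life. Stem cells carry the intermediate filament nestin (Nes), the transcription factors Sox2 and Pax6, and the homeodomain-only protein Hopx, and Notch signalling through Hes5 keeps them from differentiating. Intermediate progenitors switch on Eomes (Tbr2) and the proneural factor Neurog2, and Sox11 and Sox4 act in the newborn neurons that follow. Genes of this kind usually start inside CpG islands, stretches of dense CpGs that stay unmethylated in most cells whether or not the gene is used.

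Libraries listed between 1844706 and 2236384 cytosines, and median coverage lay between 34 reads in cocaine 3 and 66 in saline 3. Cytosines covered in all 8 libraries were 48.7% of those covered in any. Saline 1 stood apart: fully methylated or fully unmethylated values made up 14.3% at intermediate cytosines with 30 to 40 reads, while the other 7 libraries had 0.368% to 2.87%. Cocaine 3 had the lowest mean level over common cytosines, 36.5%. Genes used as granule cell markers, such as Prox1 and Calb1, had start windows at 1.34% ± 0.272 in cocaine mice and 1.37% ± 0.269 in saline mice (SD, n = 4 each). Their interiors averaged 31.3% ± 1.84 in cocaine mice and 32.8% ± 1.46 in saline mice (SD, n = 4 each). Interiors of oligodendrocyte markers stood at 49.0% ± 2.19 in cocaine mice and 52.6% ± 1.82 in saline mice (SD, n = 4 each). Those of microglia markers stood at 83.9% ± 2.27 in cocaine mice and 86.4% ± 1.36 in saline mice (SD, n = 4 each). Astrocyte marker interiors stood at 40.2% ± 0.683 in cocaine mice and 41.8% ± 0.795 in saline mice (SD, n = 4 each). Interneuron marker interiors lay below those of granule cell markers, at 27.0% ± 0.663 in cocaine mice and 28.4% ± 1.21 in saline mice (SD, n = 4 each). Start windows averaged 14.0% in cocaine mice and 14.2% in saline mice at 7 astrocyte markers. Their median gene was at 0.474%, against 0.936% for granule cell markers. In the same order, 7 interneuron marker starts averaged 2.87% and 3.55%, and 3 oligodendrocyte marker starts 25.5% and 24.8%. No microglia marker start had enough cytosines. Interior means rest on 9 granule cell, 6 oligodendrocyte, 6 microglia, 10 astrocyte and 9 interneuron genes.

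The following promoter sequences, windows of 300 bases that take in an annotated start, are from RefSeq, build GRCm38.p6, whose chromosomes have mm10 coordinates. They show the pair of Hopx starts, which differ in CpG number and level, beside 3 starts of low level, with CpGs in capitals. Hopx has a pair of annotated starts on the minus strand of chromosome 5. Its distal window, chr5:77115074-77115373, holds 8 CpGs, and its inner window, chr5:77095218-77095517, holds 21. Sox2 at chr3:34649745-34650044 holds 27, Nes at chr3:87970843-87971142 holds 18 and Hes5 at chr4:154960673-154960972 holds 41, all on the plus strand. Of the windows not shown, Eomes and Neurog2 hold 10 each, Sox4 12, Sox11 21, and the pair of Pax6 starts 18 and 16. The 300-base windows of Eomes, Neurog2 and Sox4 hold few more CpGs than that of the distal Hopx start. Within 1 kb of the starts of their spans, these 3 genes lay under 1% over both groups. No cytosine of the 300-base window was measured at Eomes, Sox4 or the distal Hopx start, so CpG number and level come from different stretches. Whether CpG number orders the levels was not tested. The median of 32851 RefSeq promoters was 7 CpGs.
Hopx distal: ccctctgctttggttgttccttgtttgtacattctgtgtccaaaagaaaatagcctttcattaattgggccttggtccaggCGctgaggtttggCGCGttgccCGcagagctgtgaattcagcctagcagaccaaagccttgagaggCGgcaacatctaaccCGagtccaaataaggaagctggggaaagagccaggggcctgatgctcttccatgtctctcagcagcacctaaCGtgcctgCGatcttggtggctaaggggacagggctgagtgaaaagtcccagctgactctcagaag
Hopx inner: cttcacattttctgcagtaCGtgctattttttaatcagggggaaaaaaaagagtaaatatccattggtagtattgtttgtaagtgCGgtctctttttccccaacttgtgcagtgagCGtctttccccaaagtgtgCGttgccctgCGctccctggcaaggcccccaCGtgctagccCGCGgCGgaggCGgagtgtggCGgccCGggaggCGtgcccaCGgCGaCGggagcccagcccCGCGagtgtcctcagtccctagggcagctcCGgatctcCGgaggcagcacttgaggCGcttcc
Sox2: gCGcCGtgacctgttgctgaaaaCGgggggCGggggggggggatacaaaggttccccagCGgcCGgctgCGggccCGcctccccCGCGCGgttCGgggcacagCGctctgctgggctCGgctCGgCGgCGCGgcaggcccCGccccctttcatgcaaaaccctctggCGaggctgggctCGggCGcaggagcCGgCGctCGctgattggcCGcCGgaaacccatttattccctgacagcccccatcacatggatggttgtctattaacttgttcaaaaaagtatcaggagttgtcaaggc
Nes: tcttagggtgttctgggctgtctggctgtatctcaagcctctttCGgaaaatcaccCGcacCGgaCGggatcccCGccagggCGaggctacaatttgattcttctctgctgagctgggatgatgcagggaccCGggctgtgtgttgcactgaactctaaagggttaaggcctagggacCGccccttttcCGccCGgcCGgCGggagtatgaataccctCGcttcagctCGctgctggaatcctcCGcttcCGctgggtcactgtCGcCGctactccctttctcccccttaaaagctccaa
Hes5: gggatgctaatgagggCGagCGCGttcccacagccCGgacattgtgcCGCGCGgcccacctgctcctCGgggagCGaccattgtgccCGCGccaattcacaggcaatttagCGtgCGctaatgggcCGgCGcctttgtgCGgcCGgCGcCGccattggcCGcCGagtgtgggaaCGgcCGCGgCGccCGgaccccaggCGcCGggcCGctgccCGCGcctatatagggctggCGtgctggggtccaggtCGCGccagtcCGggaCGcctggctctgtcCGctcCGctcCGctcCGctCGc
Reduced representation libraries are usually cut with MspI at CCGG, although the enzyme is not given in the sources used here. CCGG, which is its own reverse complement, occurs in 52.8% of all these promoters. It has 6 matches in the Hes5 window, 4 in Nes, 3 in Sox2 and 3 at the inner Hopx start, and none at the distal Hopx start. No cytosine of the 300-base window was measured at that start or at Sox4, which also has no match. None was measured either at the first Pax6 start, with 4 matches, or at Eomes, with 1. In the Sox2 window 23 of the 27 CpGs were measured, at 0.311% ± 0.391 in cocaine mice and 1.49% ± 2.29 in saline mice (SD, n = 4 each). In the Nes window 11 CpGs were measured, at 0.332% ± 0.247 in cocaine mice and 0.406% ± 0.330 in saline mice (SD, n = 4 each). The core of the RBPJ motif, TGGGAA searched on both strands, lies in 25.6% of promoters and cannot overlap CCGG. RBPJ is the DNA-binding partner of Notch, and the Hes5 window has matches at -226 and -82 from its start. Of the other windows of the 9 genes, Sox4 has 1 match, at -100. The 7 CpGs measured in the Hes5 window averaged 1.23% ± 0.982 in cocaine mice and 1.74% ± 1.17 in saline mice (SD, n = 4 each).

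Around the starts of their spans, 8 of the 9 genes were almost free of methylation in both groups, and Hopx was the exception. In the window from 1 kb before to 1 kb after the start of the span, the level pooled over both groups was 0.327% at Neurog2, 0.509% at Sox4, 0.796% at Sox2 and 0.898% at Eomes. It was 0.930% at Hes5, 0.956% at Nes, 1.01% at Sox11 and 2.25% at Pax6. Each of these 8 genes overlapped its neighbour in that order when all libraries were considered. The order depends on the start used. Within 1 kb of the start in the promoter sequences, Hes5 averaged 2.96% in cocaine mice and 2.54% in saline mice. Neurog2 averaged 1.18% in cocaine mice and 0.735% in saline mice there. The Hopx window stood at 26.9%, and its lowest library, at 16.3%, lay above the highest Pax6 library, at 4.20%. Over 10176 protein-coding genes with such a window the median was 0.737% and 82.7% lay under 5%, so that low starts are common and the Hopx start sat at the 91.8th percentile.

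Inside the genes, past both end windows, levels were spread over a wider range than in the 8 low start windows. Over both groups, the interior was lower than the start window at Sox11, Sox2 and Hopx, and higher at Nes, Pax6, Eomes, Sox4 and Neurog2. At Sox2 this held in saline mice (interior 0.512%, start window 1.17%) but not in cocaine mice (0.840% and 0.418%). Of the 58 interior cytosines of Hopx, 42 lie within 1 kb of its inner start, at 0.818% in cocaine mice and 0.841% in saline mice. Interior levels were 0.462% at Sox11, 0.676% at Sox2, 1.47% at Sox4 and 4.01% at Neurog2, then 10.4% at Eomes, 17.7% at Hopx, 18.8% at Pax6 and 35.4% at Nes. Neighbours in this order overlapped over the libraries. Hes5 is too short to have an interior. All 8 values lay below 36.5%, the lower quartile of 12132 protein-coding gene interiors, whose median was 67.8%. Few cytosines stand behind some of them, 9 at Nes and 19 at Neurog2, against 185 at Pax6.

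**Figure D1:**
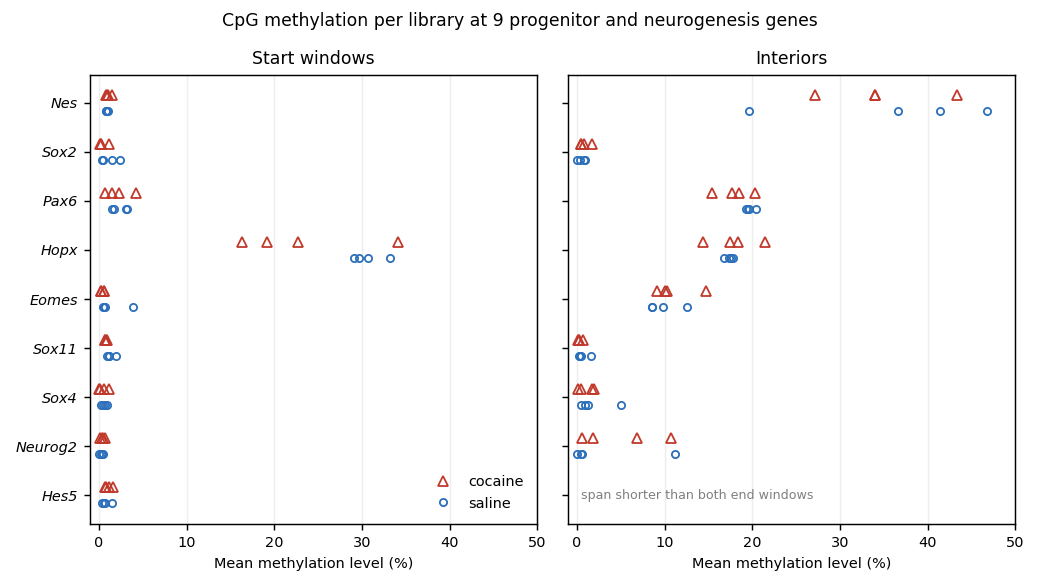
Mean methylation level in percent (x axis) per library for each gene (y axis) in its start window (left) and interior (right), with cocaine and saline libraries as separate symbols. Start windows lie under 5% in every library except at Hopx, where cocaine libraries run from 16.3% to 34.1% and saline libraries from 29.1% to 33.2%.

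By distance, 16 of the 17 runs within 1 kb of a start were under 5%, with a median of 0.847%. Of the 13 runs from 1 to 5 kb upstream, 4 were under 5% and 5 were at 20% or more. Of the 26 runs from 1 to 5 kb downstream, 15 were under 5% and 7 were at 20% or more. Beyond 5 kb downstream 13 of 26 runs were at 20% or more, with a median of 20.7%. The highest run of all was at Sox4, a gene whose other 7 runs stayed under 5%. It lay from -1378 to -1235 bases relative to the start and was methylated at 87.6% ± 3.99 in cocaine mice and 86.3% ± 5.77 in saline mice (SD, n = 4 each).

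**Figure D2:**
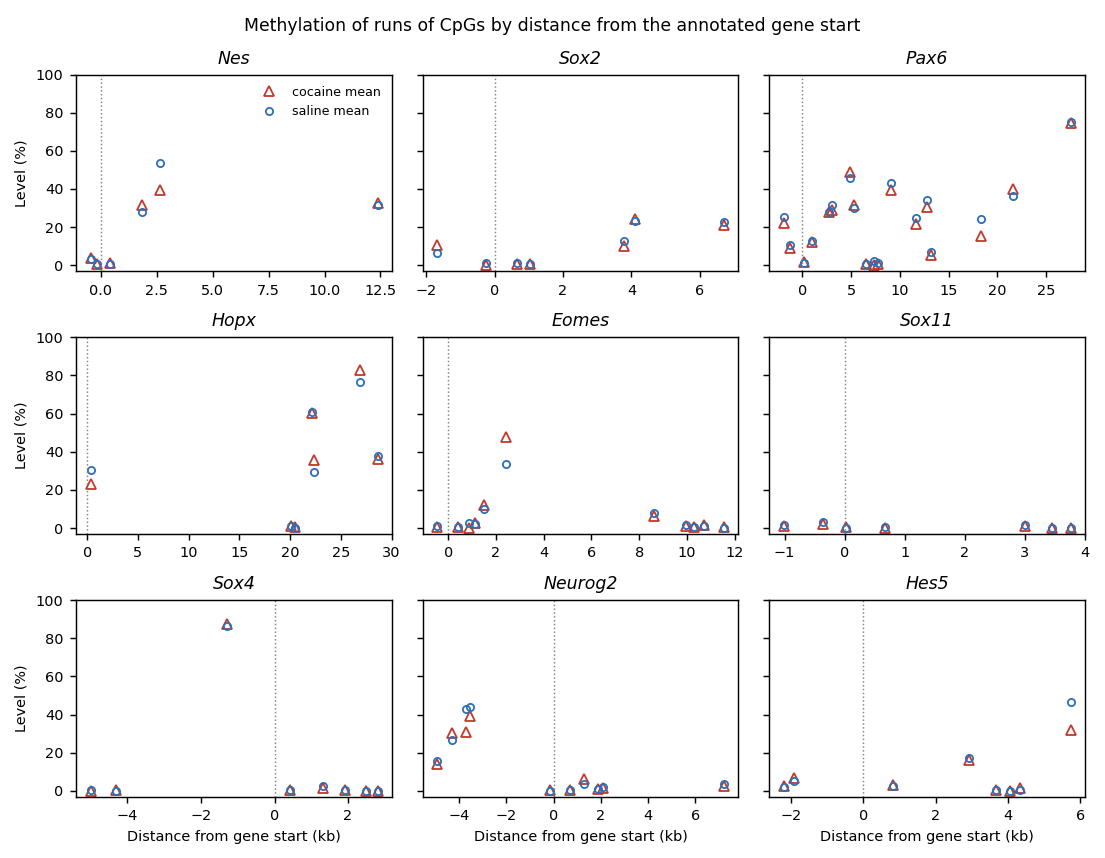
Methylation level in percent (y axis) of each run of CpGs against distance from the annotated gene start in kb (x axis), 1 panel per gene, with the cocaine and saline means as separate symbols. Runs near the start lie at the floor in every gene except Hopx, and the isolated high run upstream of Sox4 is near 87%.

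No run, gene end or interior of the 9 genes was called different between cocaine and saline mice. Calls needed an adjusted p under 0.05 (quasi-binomial regression, Benjamini-Hochberg over the whole table) and a difference of at least 10 points for runs or 5 for gene ends and interiors. Only features with a pooled level from 5% to 95% were tested, which kept 37 of the 82 runs. The other 45 runs were under 5%, among them all 7 of Sox11. Of the interiors 4 were tested, with none under an unadjusted p of 0.05, against 6.78% of 14641 interiors genome-wide. None of the 92426 tested runs of the genome was called either, a background of 0%, with a smallest adjusted p of 0.249. At an unadjusted p under 0.05 the 9 genes had 3 of 37 runs, all lower in cocaine mice, against 5.66% of runs genome-wide, where 4.58% were lower and 1.08% higher. The limma fit on logit levels left 2 of the 3, at Nes and Hes5. With a coverage minimum of 20 there were again 3, at Nes, at Hopx and at a Pax6 run 14.1 points higher in cocaine mice. The Hes5 run, on 3 cytosines there, had an unadjusted p of 0.104. Without cocaine 4 the count was 5. Lower means in cocaine mice were found at 22 of the 37 runs, or 59.5%, and at 61.4% of all tested runs. The median difference was -0.98 points over the 37 runs and -1.05 points over all tested runs, and the members' median was 0.559 points without cocaine 3, the library with the lowest mean level.

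**Figure D3:**
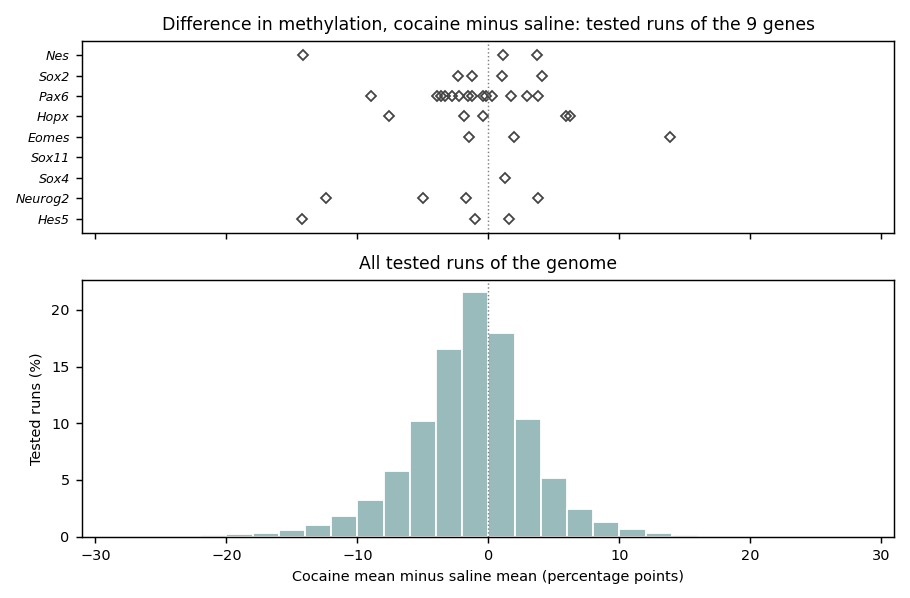
Cocaine mean minus saline mean in percentage points (x axis) for the 37 tested runs by gene (top) and as the percent of all tested runs in the genome (bottom, 18 runs outside the axis not drawn). The runs of the 9 genes scatter around a median of -0.98 points, and 4 of them differ by 10 points or more.

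Nes, the filament gene of stem cells (gene ID 18008, chr3:87971093-87980451, plus strand), was methylated downstream of an unmethylated start. Its start window averaged 1.04% ± 0.312 in cocaine mice and 0.868% ± 0.108 in saline mice (SD, n = 4 each). From 2610 to 2674 bases past the start, at chr3:87973703-87973767, a run of 3 CpGs had 48.5%, 31.3%, 34.2% and 44.3% in cocaine mice, against 40.9%, 59.7%, 52.0% and 62.3% in saline mice. The groups overlapped, since cocaine 1 and cocaine 4 lay above saline 1. The mean was 39.6% ± 8.16 in cocaine mice and 53.7% ± 9.61 in saline mice (SD, n = 4 each), a difference of -14.1 points. That was the smallest p among the 37 runs, 0.00925 unadjusted and 0.875 adjusted over all runs, with 31 to 90.3 reads per cytosine and library. The nearest run in the gene, from 1759 to 1885 bases, was at 31.4% ± 7.57 in cocaine mice and 27.7% ± 13.7 in saline mice (SD, n = 4 each, adjusted p = 0.983). Its low saline value was saline 1, at 8.39%, with the other saline libraries from 30.2% to 40.7%, so the higher cocaine mean rests on that library. Together they hold 8 of the 9 measured interior cytosines, and the interior averaged 34.6% ± 6.65 in cocaine mice and 36.1% ± 11.8 in saline mice (SD, n = 4 each, adjusted p = 0.940).

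Hopx, a homeodomain protein without DNA-binding ability that marks quiescent stem cells (gene ID 74318, chr5:77086986-77115123, minus strand), had the sole start window with enough methylation to test. All 25 cytosines of that window fall in 1 run, 79 to 594 bases past the distal start at chr5:77114529-77115044. Levels were 19.1%, 22.7%, 16.3% and 34.1% in cocaine mice, against 30.7%, 29.1%, 29.7% and 33.2% in saline mice. Cocaine 1, 2 and 3 lay below every saline library, and cocaine 4 lay above all of them. The mean was 23.1% ± 7.82 in cocaine mice and 30.7% ± 1.80 in saline mice (SD, n = 4 each), a difference of -7.58 points. As a run its p was 0.0294 unadjusted and 0.875 adjusted. As a gene end it was 0.0332 unadjusted and 0.828 adjusted, against 5.79% of 7337 tested gene ends under 0.05. Without cocaine 4 the difference was -11.3 points, with an adjusted p of 0.771 for the run. The window also belongs to an end of the noncoding gene Gm15831, which shares its cytosines.

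The inner Hopx start looked different. Within 1 kb of it, 42 cytosines averaged 0.818% ± 0.114 in cocaine mice and 0.841% ± 0.149 in saline mice (SD, n = 4 each), with libraries from 0.678% to 1.02%. Further on, levels went up again to 60.2% ± 15.2 in cocaine mice and 60.7% ± 4.74 in saline mice at 22085 bases, and to 82.7% ± 8.82 in cocaine mice and 76.8% ± 6.58 in saline mice at 26768 bases (SD, n = 4 each). Neither run passed the test, with adjusted p values of 0.974 and 0.890. Over the 7337 tested gene ends and 8 libraries, the windows most like the Hopx start were those of Nr1d1 (Pearson r = 0.977), Gm42788 (0.961) and Gm17029 (0.958). These correlations describe 8 libraries that share depth and the groups, and were the highest of all compared.

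Sox2, a transcription factor needed to maintain stem cells (gene ID 20674, chr3:34649995-34652461, plus strand), lies inside the noncoding gene Sox2ot. Its start window was at 0.190%, 0.256%, 1.11% and 0.118% in cocaine mice and at 2.44%, 1.43%, 0.328% and 0.491% in saline mice. The groups overlapped at these levels near the floor. Its 4 tested runs were all in the flanks. The one with the smallest p, from -1707 to -1643 bases, averaged 10.7% ± 2.70 in cocaine mice and 6.64% ± 7.76 in saline mice (SD, n = 4 each, adjusted p = 0.960). Saline libraries of that run reached from 0% to 17.8% and enclosed every cocaine library. The difference was 4.07 points, 1.86 without saline 1 and 7.78 without saline 2. Downstream, 4040 to 4186 bases from the start, the level was 24.2% ± 2.16 in cocaine mice and 23.2% ± 7.01 in saline mice (SD, n = 4 each).

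Pax6, a paired-box factor of radial glia (gene ID 18508, chr2:105668896-105698410, plus strand), held 14 of the 37 tested runs and alternated between low and methylated stretches. From 6399 to 7872 bases past the start, 3 dense runs averaged between 0.165% and 2.27% in either group. On either side, runs stood at 31.8% ± 5.21 in cocaine mice and 30.02% ± 4.97 in saline mice at 5117 bases, and at 39.5% ± 7.47 in cocaine mice and 43.2% ± 8.35 in saline mice at 9018 bases (SD, n = 4 each). The second annotated start, at base 105682463, had 8 measured promoter cytosines at 4.32% ± 1.33 in cocaine mice and 6.01% ± 3.32 in saline mice (SD, n = 4 each). Within 1 kb of that start, 33 cytosines averaged 19.8% ± 4.02 in cocaine mice and 22.8% ± 1.65 in saline mice (SD, n = 4 each). That window was thus not low, unlike the start window of the span. The run with both the smallest p and the largest difference lay at 18295 to 18391 bases, chr2:105687191-105687287. It had 17.6%, 17.7%, 14.5% and 10.4% in cocaine mice, against 33.0%, 14.4%, 16.6% and 32.1% in saline mice. Saline 1 and saline 4 lay above all cocaine libraries, and the other two saline libraries lay among them. The difference was -8.93 points (adjusted p = 0.883), and -5.93 points without saline 1. The interior as a whole, over 185 cytosines, averaged 18.0% ± 2.02 in cocaine mice and 19.7% ± 0.525 in saline mice (SD, n = 4 each, adjusted p = 0.819).

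Hes5, a transcriptional repressor switched on by Notch (gene ID 15208, chr4:154960626-154962372, plus strand), was low over its whole length. Its start window averaged 1.09% ± 0.405 in cocaine mice and 0.772% ± 0.511 in saline mice (SD, n = 4 each), and its far-end window 4.28% ± 1.98 in cocaine mice and 3.61% ± 0.881 in saline mice (SD, n = 4 each). The one tested run of the 37 whose groups did not overlap lay 5649 to 5816 bases past the start, at chr4:154966275-154966442, inside the neighbouring gene Pank4. It had 34.7%, 24.9%, 29.0% and 39.96% in cocaine mice, against 42.6%, 41.5%, 49.2% and 52.1% in saline mice. Every cocaine library lay below every saline library, which held for 2.6% of all tested runs, and every cocaine library lay above at none of the 37 runs and at 0.682% of all. The mean was 32.1% ± 6.58 in cocaine mice and 46.3% ± 5.11 in saline mice (SD, n = 4 each), a difference of -14.2 points with an unadjusted p of 0.0149 and an adjusted p of 0.875. With a coverage of 18.4 to 54.3 reads per cytosine, this run was among the thinner ones.

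Eomes, a T-box factor of intermediate progenitors (gene ID 13813, chr9:118478186-118486132, plus strand), gave the largest positive difference among the 37 runs. From 2366 to 2460 bases past the start, at chr9:118480552-118480646, levels were 55.8%, 44.6%, 55.5% and 34.4% in cocaine mice, against 16.5%, 37.1%, 34.1% and 47.0% in saline mice. The groups overlapped through cocaine 4 and saline 4. The mean was 47.6% ± 10.2 in cocaine mice and 33.7% ± 12.7 in saline mice (SD, n = 4 each), 13.9 points higher in cocaine mice with an adjusted p of 0.897. Without saline 1 the difference was 8.16 points. The interior averaged 11.04% ± 2.47 in cocaine mice and 9.84% ± 1.89 in saline mice (SD, n = 4 each, adjusted p = 0.966). Its far-end window, which opens a second low stretch past the gene, was at 6.27% ± 1.70 in cocaine mice and 7.73% ± 2.11 in saline mice (SD, n = 4 each, adjusted p = 0.925). In the downstream flank 60 cytosines averaged 1.27% ± 0.337 in cocaine mice and 1.16% ± 0.485 in saline mice (SD, n = 4 each).

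Neurog2, a proneural factor (gene ID 11924, chr3:127632733-127635636, plus strand), was unmethylated across its start and methylated at intermediate level from -5236 to -3489 bases. The upstream flank, from 1 to 5 kb, had 24.7% ± 0.780 in cocaine mice and 24.6% ± 2.04 in saline mice (SD, n = 4 each) over 61 cytosines. Within it the runs went both ways. The run from -4492 to -4154 bases, which overlaps the noncoding gene Gm40147, had 31.3%, 28.6%, 34.0% and 27.0% in cocaine mice, against 26.9%, 27.7%, 23.2% and 27.8% in saline mice. Cocaine 4 lay among the saline libraries and the other cocaine libraries above them, a difference of 3.82 points with an unadjusted p of 0.0514 and an adjusted p of 0.875. The run from -3747 to -3689 bases averaged 30.6% ± 11.3 in cocaine mice and 43.0% ± 8.88 in saline mice (SD, n = 4 each), a difference of -12.4 points (adjusted p = 0.903).

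Sox11 and Sox4, related factors of newborn neurons, stayed under 2% on average in both start window and interior in either group. Sox11 (gene ID 20666, chr12:27334268-27342718, minus strand) had 223 measured cytosines in 7 runs, none of which reached the tested range. Its start window, with 176 cytosines, averaged 0.762% ± 0.128 in cocaine mice and 1.25% ± 0.435 in saline mice (SD, n = 4 each). Its interior averaged 0.303% ± 0.291 in cocaine mice and 0.620% ± 0.652 in saline mice (SD, n = 4 each). Sox4 (gene ID 20677, chr13:28948919-28953699, minus strand) averaged 0.461% ± 0.524 in cocaine mice and 0.558% ± 0.321 in saline mice in its start window (SD, n = 4 each). The methylated run upstream of Sox4, at chr13:28954934-28955077, had 91.4%, 90.6%, 83.5% and 84.9% in cocaine mice, against 77.7%, 89.5%, 88.7% and 89.4% in saline mice. The low saline value is saline 1, and the groups overlapped (difference 1.29 points, adjusted p = 0.972, and -1.59 points without saline 1).

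**Figure D4:**
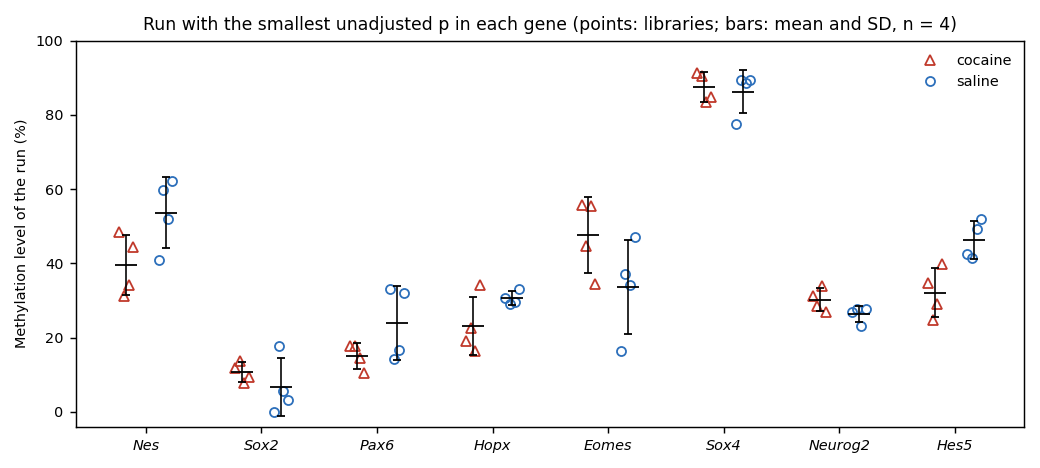
Methylation level in percent (y axis) of the run with the smallest unadjusted p in each of the 8 genes with a tested run (x axis). Points are libraries and bars the mean and SD of 4 mice, cocaine left of saline, and the groups separate fully at Hes5 alone.

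At single cytosines no test was made. Of the 370 cytosines of the 9 genes with a pooled level from 5% to 95%, 7 had every cocaine library below every saline library and 6 had every cocaine library above. The same held for 1.98% and 0.95% of the 666028 such cytosines in the genome, and for 1.89% and 1.62% of the members' cytosines. Of the 6 above, 4 lay in the Neurog2 run that begins at -4492 bases, and 3 of those were read on the same strand at the same coverage of 30 to 94 reads. The largest of them, at base 127628322 of chromosome 3, averaged 55.8% in cocaine mice and 32.3% in saline mice. Of the 7 below, 3 lay in Pax6 and 2 in the Hopx start run. At base 77114952 of chromosome 5 in Hopx, levels were 0%, 16.3%, 8.77% and 23.5% in cocaine mice, against 27.9%, 39.1%, 28.0% and 29.5% in saline mice.

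Other genes of the same biology gave no called run. Of 128 tested runs in 23 further stem cell genes, 7 passed an unadjusted p of 0.05 with a lower level in cocaine mice and 2 with a higher one. The share was 7.03%, and the median difference over the 128 runs was -0.37 points. Msi1 and Msi2, RNA-binding proteins of stem cells, held the smallest p values there. Msi1 had a run at 12.4% ± 4.61 in cocaine mice and 21.2% ± 3.11 in saline mice, and Msi2 one at 21.3% ± 6.12 in cocaine mice and 33.0% ± 5.26 in saline mice (SD, n = 4 each, adjusted p = 0.875 for both). Gli3, a Hedgehog effector, followed at 56.1% ± 9.48 in cocaine mice and 70.8% ± 4.15 in saline mice (SD, n = 4 each, adjusted p = 0.875). Of 86 tested runs in 20 Notch pathway genes, 5 passed an unadjusted p of 0.05 with a lower level in cocaine mice and none with a higher one. The share was 5.81%, and the median difference over the 86 runs was -1.46 points. The receptor Notch1 led with 14.3% ± 9.21 in cocaine mice and 25.4% ± 5.78 in saline mice (SD, n = 4 each, adjusted p = 0.875), before the ligands Dlk1 and Dll4. Of 89 tested runs in 20 further neurogenic and new neuron genes, 6 passed it with a lower level in cocaine mice and 1 with a higher one. The share was 7.87%, and the median difference over the 89 runs was -2.12 points. There Bcl11b, a zinc finger factor that is also a granule cell marker, had a run at 9.26% ± 5.49 in cocaine mice and 25.5% ± 7.67 in saline mice (SD, n = 4 each, adjusted p = 0.875). Bhlhe22 and Prox1 came next, with differences of -14.2 and -4.96 points. These shares and medians stand beside the 5.66% and -1.05 points of all tested runs.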

How the data were processed

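Each line of the authors' files gives a CpG cytosine, its strand, its level and its coverage. Reads were processed with bcl2fastq and Bismark 22.1 against mm10, per the submitters' processing notes. The deposited level is a fraction from 0 to 1, named a percent per the file headers, so values were scaled to 100. Coverage, as deposited, is a read count of at least 10. Level times coverage gave whole methylated reads at 100% of values, within 5e-07 times the coverage. Gene spans, starts and promoters came from RefSeq tables of GRCm38.p6.

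Runs, gene ends and interiors (at least 5 cytosines, pooled level 5% to 95%) were fitted over the whole genome. The test was a quasi-binomial logistic model with group as its term, on methylated against unmethylated reads, in R 4.3.3 with limma 3.58.1 (squeezeVar, trend on log coverage, dispersion floor of 1), with an F test and Benjamini-Hochberg adjustment. Tables were prepared in Python 3.11.15 with numpy 2.4.6 and pandas 2.3.3. The prior degrees of freedom were 11.4 for runs, 9.67 for gene ends and 10.3 for interiors. The test was checked on simulated reads, where few changes of 10 points were found. At an adjusted p under 0.05 it found 0 of 50 runs changed by 10 points and 12 of 50 changed by 20 points. It found 38 of 50 runs changed by 30 points and 50 of 50 changed by 40 points. Of gene ends and of interiors changed by 10 points it found 1 of 50 each. The simulated spread between libraries was the same setting for every feature, whatever its number of cytosines, and was not fitted to these data. Changed features were taken at intermediate levels only. The counts hold for that setting and may differ in these data, also for large gene ends and interiors. A lack of calls does not show equal levels. Levels per gene part weight cytosines equally. Strands were kept apart, and mitochondrial and unplaced contigs were left out. Median depth over the 37 tested runs of the 9 genes was 60.3 reads per cytosine and library. No molecular identifiers are given in the sources used here, so read counts may include copies of 1 molecule.

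For each of the 9 genes the run with the smallest p and the run with the largest difference were named, and up to 3 genes per further list by the smallest p. The genes, lists and tests were chosen with earlier results of these data known. The lowest chi-square per run among the 28 pairs of libraries was 4.73, so no library was taken as a copy of another. Replicate numbers came from sample titles, which do not say whether the mice were paired, and were not taken to pair them.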

Additional observations from a re-analysis of the deposited data

Results flagged for a closer look

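Values per gene part and tested run were examined in 136 groups of 4 libraries, and 8 held a library set apart from the other 3 by most of the group's range. Chance sets 1 in 20 groups apart in this way if values are normally distributed, which levels near 0% need not be. Some parts and runs share cytosines, as at the Hopx start, so the groups are not independent. Saline 1 and saline 2 each account for 3 of the 8. At starts, cocaine 3 had 1.11% in the Sox2 start window, with the other cocaine libraries from 0.118% to 0.256%. Saline 4 had 3.86% in the Eomes start window, with the other saline libraries from 0.440% to 0.721%. In the Neurog2 interior, saline 2 had 11.2% and the other saline libraries from 0% to 0.554%. In the flanks, saline 1 had 1.88% downstream of Eomes, with the others from 0.868% to 0.985%, and 14.3% upstream of Sox4, with the others from 16.4% to 16.6%. Saline 2 had 4.16% downstream of Hes5, with the others from 5.42% to 5.63%. The Sox2 run at 6513 bases past the start was at 29.0% in saline 2 and from 19.3% to 20.7% in the other saline libraries. The run upstream of Sox4 was at 77.7% in saline 1 and from 88.7% to 89.5% in the others. What set these values apart was not tested.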

How the results depend on the processing

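No alternative gave a called run, gene end or interior of the 9 genes. Runs at an unadjusted p under 0.05 numbered 3 in the reported fit, 7 with no filter on level, and 2 to 5 with 1 library left out, the most without cocaine 4. Without the filter, 3 of the 7 had means under 5% in both groups. Gene ends under 0.05 numbered 1 in the reported fit, 0 with limma on logit levels, and 0 to 1 with 1 library left out, with 0 without cocaine 1, 2 or 3 or saline 3 or 4. The replicate block called 1 of all tested runs, which was not a run of the 9 genes, at a smallest adjusted p of 0.0126, and gave 4 runs of the 9 genes under 0.05. Same-numbered libraries deviated together with correlations from -0.0169 to 0.0778, and the numbers were not taken to pair mice. Other pairs of a cocaine and a saline library had correlations from -0.139 to 0.0640. With 1 library left out the median difference of the members' runs lay between -1.76 and 0.559 points.

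Directions turned where differences were small. The Eomes interior was at -0.0335 points with a coverage minimum of 20, and -0.00723 to 2.10 with 1 library left out. The Nes interior ranged from -7.02 to 2.04 points with 1 library left out, the Hopx interior from -0.661 to 1.71, and the methylated Sox4 run from -1.59 to 2.66. Among parts without a test, the Sox2 downstream flank turned from -0.615 to 0.624 points when reads were summed over cytosines. With a coverage minimum of 20 the Neurog2 upstream flank turned from 0.103 to -0.107 and the Sox4 interior from -0.867 to 0.0141. Summing reads over cytosines moved the Sox4 upstream flank from 0.429 to 2.21 points without a turn. The cause was not tested. The Nes, Hopx and Hes5 runs kept their negative difference under every alternative that gave a value, from -18.4 to -11.3, -11.3 to -5.33 and -16.8 to -11.8 points with 1 library left out. The Eomes run lay between 8.16 and 18.3 points, the Sox2 run between 1.86 and 7.78 and the Pax6 run between -12.1 and -5.93.

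Some comparisons rest on few cytosines or few reads. Levels also varied between libraries by more than independent reads would give. Dispersion, which is 1 if all counted reads are independent, was 4.98 at the Nes run, 5.09 at the Hes5 run and 9.95 at the Eomes run. Counts were summed over cytosines, so a read across several of them was counted at each. Such repeats raise dispersion without any difference between mice, and their share was not tested. Which of few cytosines, few reads and this spread limited the comparisons most was not tested. The call rule left out differences under 10 points at runs, and larger ones also missed the adjusted threshold, as those of 13.9 to 14.2 points in size at Eomes, Nes and Hes5 did, with adjusted p values from 0.875 to 0.897. Cytosines outside the measured fragments were not analysed here, nor those beyond the 5 kb flanks, apart from 2 runs that reach past them.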

Other observations

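In the runs of the 9 genes that stayed under 5%, some single libraries carried the same small number of methylated reads at nearly every cytosine of 1 strand. The Eomes run at 805 bases past the start had 5 methylated reads at 14 of 15 plus-strand cytosines in saline 4, at a median coverage of 57. On the minus strand the same library had 6 at 14 of 16 cytosines, at a median coverage of 86. The Eomes run at 1058 bases had 7 methylated reads at 15 of 17 plus-strand cytosines in cocaine 4 (median coverage 37) and 13 at 15 of 17 in saline 1 (median coverage 141), with 0% on the opposite strand in both. The Neurog2 run at 1218 bases, which was measured on 1 strand, had 3 at 12 of 15 cytosines in cocaine 4 and 2 at 12 of 15 in saline 2. At Pax6 7185 bases past the start, saline 2 had 2 at 11 of 12 minus-strand cytosines, with 0% on the opposite strand. The files do not link cytosines into reads, so whether these are whole methylated molecules or copies of 1 was not tested. The high Eomes start window of saline 4 and Neurog2 interior of saline 2 include these cytosines.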
